A study of Drosophila melanogaster with 4 samples.

Results

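The Hox complexes of Drosophila melanogaster, ANT-C and BX-C, were examined for H3K9me1 as 680 tiles of 1 kb on chromosome arm 3R, out of 120378 such tiles on the arms and chromosome 4. ANT-C (Antennapedia complex) was taken as 3R 2480001 to 2830000, from lab to Antp, giving 350 tiles. BX-C (bithorax complex) was taken as 3R 12480001 to 12810000, from Ubx to Abd-B, giving 330 tiles. Coordinates are those of FlyBase release 5, on which the cluster files are based. Each complex was compared with the 500 kb on either side of it, called its flanks here. The tiles were chosen by position, not by any measured value, although earlier results of these data were known at that point.

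The material was chromatin from heads of mixed adult flies of the wild-type Oregon-R strain, raised in population cages, and all libraries share this strain, stage and tissue. H3K9me1, histone H3 monomethylated at lysine 9, was measured by ChIP-seq, the sequencing of immunoprecipitated chromatin. There were 2 ChIP libraries, made with an antibody labelled new lot 2, and 2 input libraries that served the cluster calls. The labels do not give the sexes and do not tie the replicates to separate cages or collections, so their spread may be only technical. The cluster lists hold no expression values, so the head label could not be checked against marker genes. Heads contain many cell types, and a mark in few cells cannot be told apart from a weak mark in all of them. Coverage below is the percent of bases under enriched clusters. Read depth is unknown, so a tile outside all clusters may still carry the mark below the authors' threshold.

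Hox genes encode homeodomain transcription factors that give body segments their identity, and in flies they lie along the chromosome in roughly the order of the segments they act in. Polycomb group proteins, best known for methylating H3 at lysine 27, keep each Hox gene silent in cells outside its own segments. Monomethylated lysine 9 is a step on the way to the dimethylated and trimethylated forms that mark heterochromatin. In ANT-C, lab, pb and Dfd act in the head and mouthparts, Scr in the posterior head and anterior thorax, and Antp in the thorax. The same complex holds the embryonic patterning genes zen, zen2, bcd and ftz and the cell adhesion gene Ama. In BX-C, Ubx acts in the posterior thorax, abd-A in the abdomen and Abd-B in the most posterior segments.

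RefSeq's gene table for release 6, another assembly, was used for names, order and lengths only, and all 13 of the genes just named were found in it. Between lab and Antp it lists 20 protein-coding genes over 338 kb, including 7 cuticle protein genes of the Ccp84A family that lie between lab and pb. Between Ubx and Abd-B it lists 6 protein-coding genes over 316 kb. Antp spans 103.0 kb, Ubx 77.8 kb, Abd-B 45.0 kb, pb 34.3 kb, Scr 26.9 kb, abd-A 22.8 kb, lab 17.2 kb and Dfd 10.6 kb in that table. No gene was placed at a cluster, because the clusters are on release 5.

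H3K9me1 clusters were sparse in both complexes and nearly missing from BX-C. ANT-C was covered to 15.6% in replicate 1 and 14.8% in replicate 2, against 29.3% and 25.2% in its flanks. BX-C was covered to 2.96% in replicate 1 and 0.588% in replicate 2, against 30.1% and 26.1% in its flanks. In each replicate both complexes lay below the flank on their left and the flank on their right.

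In ANT-C the mean was 15.2 ± 0.535% (SD, n = 2), against 27.3 ± 2.85% in the flanks. The difference, ANT-C minus flanks, was -12.1 ± 2.32 percentage points (SD, n = 2), larger than the spread between the replicates. ANT-C held 0.531 times the coverage of its flanks in replicate 1 and 0.586 times in replicate 2. The 2 flanks of ANT-C were not alike: the left flank, beyond lab, was covered to 31.9 ± 1.73% and the right flank, beyond Antp, to 22.7 ± 3.97% (SD, n = 2). The difference was -16.7 ± 1.20 percentage points from the left flank and -7.50 ± 3.44 from the right (ANT-C minus flank, SD, n = 2).

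In BX-C the mean was 1.77 ± 1.67% (SD, n = 2), against 28.1 ± 2.82% in the flanks. The difference, BX-C minus flanks, was -26.4 ± 1.15 percentage points (SD, n = 2). The difference was far larger than its spread between replicates, but the size of the ratio was not well set. BX-C held 0.0981 times the coverage of its flanks in replicate 1 and 0.0225 times in replicate 2. Covered sequence came to 9.75 kb of 330 kb in replicate 1 and 1.94 kb in replicate 2. Part of it came from a cluster across the Ubx edge that lies mostly in the flank. That cluster covered 63.8% and 57.1% of the 1 kb tile at the edge in replicates 1 and 2.

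ANT-C was covered more than BX-C in each replicate, by 12.6 percentage points in replicate 1 and 14.2 in replicate 2. The flanks of ANT-C and of BX-C differed by only -0.864 ± 0.0354 percentage points (ANT-C flanks minus BX-C flanks, SD, n = 2). Both complexes also lay below the rest of 3R, which was covered to 34.8 ± 3.03% (SD, n = 2). An exact two-sided sign-flip permutation test over the replicates gave p = 0.5 for each of these differences, the smallest value that 2 replicates allow. The comparisons therefore rest on the size of the differences beside the replicate spread. That spread does not measure how coverage varies between windows along 3R, and the flanks of ANT-C themselves stood at 31.9% and 22.7%.

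**Figure D1:**
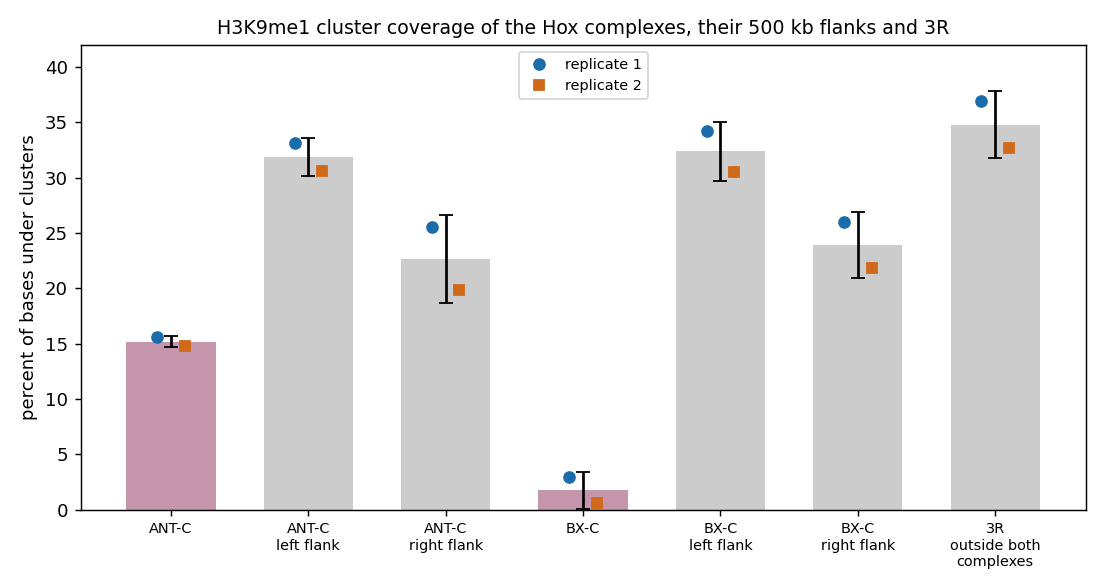
Percent of bases under H3K9me1 clusters (vertical axis) in ANT-C, BX-C, the 500 kb flank on each side and the rest of 3R. Bars are means of 2 replicates, error bars SD and points the replicates. BX-C, at 2.96% and 0.588%, lies far below its flanks, and ANT-C, at 15.6% and 14.8%, lies between.

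Counted by tile, ANT-C had fewer well-covered tiles than its flanks and BX-C almost none. In ANT-C 38 of 350 tiles, 10.9%, were at least 50% covered in both replicates, against 19.3% of flank tiles and 26.6% of all tiles of the arms and chromosome 4. In BX-C 3 of 330 tiles, 0.909%, met this rule, against 20.4% of flank tiles. Tiles fully covered in both replicates numbered 21 in ANT-C, or 6.00% against 15.5% of all tiles, and 0 in BX-C. Neighbouring tiles share clusters and are not replicates, so these counts carry no test.

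Tiles with no covered base in either replicate made up 258 of 350, or 73.7%, in ANT-C and 316 of 330, or 95.8%, in BX-C. The same class held 51.6% of the flank tiles of ANT-C, 52.0% of those of BX-C and 48.1% of all tiles. The series list, which the authors made for the whole series by an unstated route, is larger than either replicate list. It left 224 ANT-C tiles (64.0%) and 290 BX-C tiles (87.9%) without a covered base, against 33.1% of all tiles. At least 50% of the tile was covered in that list for 96 ANT-C tiles (27.4%) and 25 BX-C tiles (7.58%), against 55.1% of all tiles.

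Of the 3 BX-C tiles covered to at least 50% in both replicates, 1 is the tile at the Ubx edge of the window, 3R 12480001 to 12481000, covered to 63.8% and 57.1% in replicates 1 and 2. It is reached by a cluster that lies mostly in the flank. The other two adjoin each other at 3R 12548001 to 12550000. They were covered to 69.3% and 79.0%, and to 67.2% and 58.0%, by the 1 BX-C cluster that both replicates called.

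**Figure D2:**
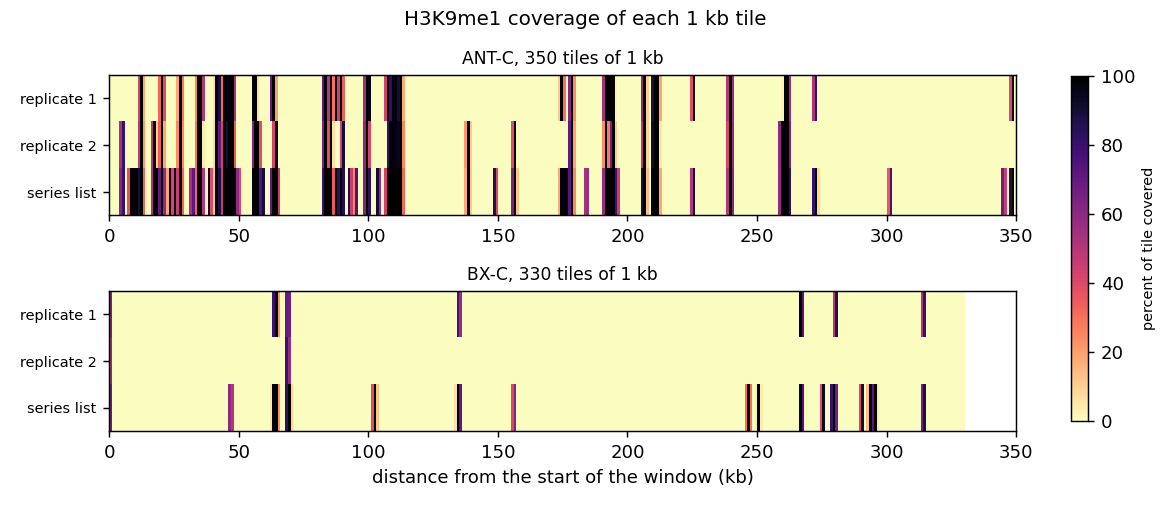
Percent of each 1 kb tile covered by H3K9me1 clusters (colour) along ANT-C and BX-C, with distance from the window start in kb on the horizontal axis and 1 row each for replicate 1, replicate 2 and the series list. Covered tiles crowd toward the lab end of ANT-C. In BX-C 316 of 330 tiles are blank in both replicates, or 95.8% against 48.1% of all tiles.

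Within ANT-C, coverage was uneven, high at the lab end and low at the Antp end. In consecutive 50 kb blocks, a division made after the profile had been seen, mean coverage was 30.7 ± 3.04% in the block at the lab end (SD, n = 2). The next block was covered to 22.1 ± 1.85%, and the following ones to 15.0 ± 0.655%, 14.3 ± 1.85% and 14.7 ± 2.29% (SD, n = 2 each). The last of these was followed by a block at 8.14 ± 0.447% and, at the Antp end, by a block at 1.34 ± 1.89%, where replicate 2 had no cluster at all. The block at the lab end was thus covered about as much as the left flank of ANT-C, and the block at the Antp end about as little as BX-C. The blocks between 100 and 250 kb from the lab end differed by less than their spread between replicates.

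At a scale of 10 kb, the best-covered bin of ANT-C was 3R 2520001 to 2530000, at 67.3% in replicate 1 and 64.4% in replicate 2. It was followed by 2560001 to 2570000, at 59.0% and 35.3%, and by 2670001 to 2680000, at 45.6% and 32.6%. Of the 35 bins of ANT-C, 11 had no cluster in either replicate, or 31.4% against 14.6% of all 10 kb bins. Of those 11, 6 lay side by side at 2760001 to 2820000. The series list left 8 of the 35 empty, or 22.9% against 7.48% of all bins.

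BX-C showed no gradient that both replicates shared. Of its 33 bins of 10 kb, 26 (78.8%) had no cluster in either replicate, against 14% of flank bins and 14.6% of all bins. The series list left 19 (57.6%) empty, against 2% of flank bins and 7.48% of all bins. The best-covered bin was 12540001 to 12550000, at 33.9% in replicate 1 and 13.7% in replicate 2, on the Ubx side of the complex. Only that bin and the one at the Ubx edge, at 6.38% and 5.71%, had covered bases in both replicates. The remaining 5 bins with coverage had it in replicate 1 alone, at most 17.3%. In the series list the block from 12730001 to 12780000, toward the Abd-B end, reached 21.5%, against 6.18% in replicate 1 and no coverage in replicate 2.

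**Figure D3:**
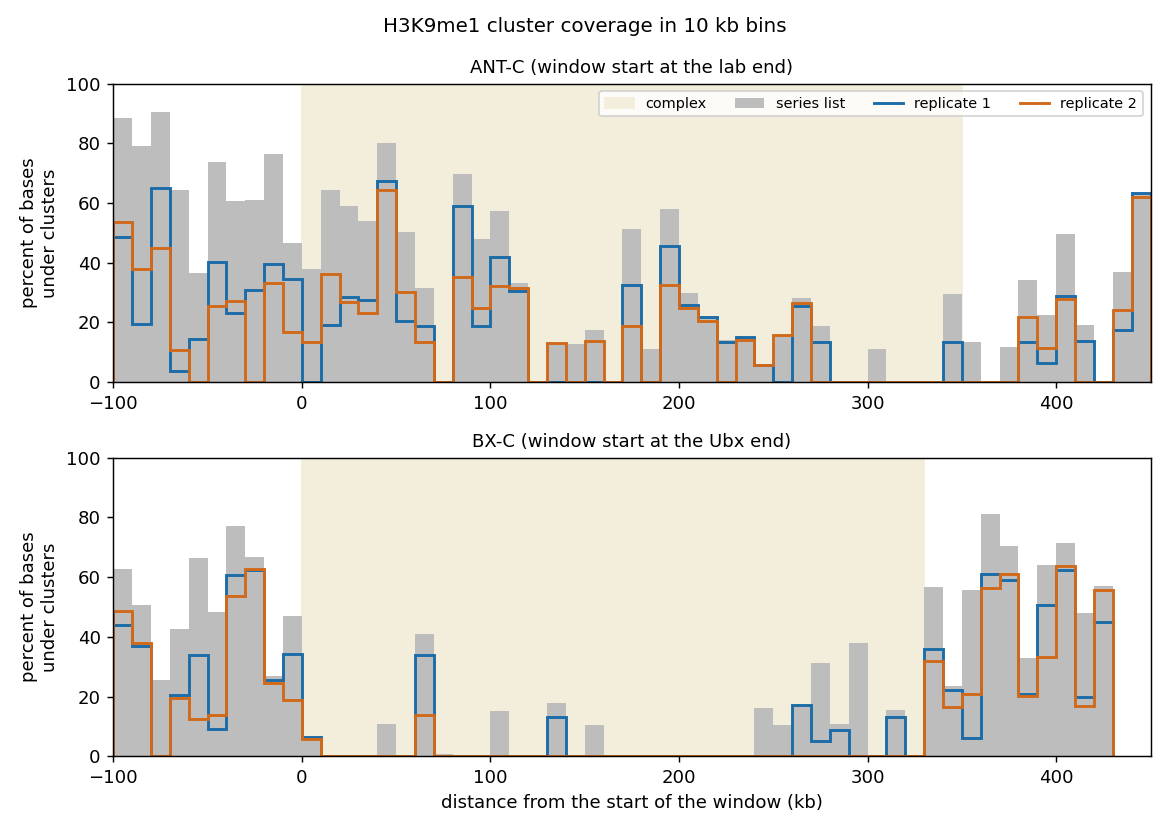
H3K9me1 coverage in 10 kb bins (percent of bases, vertical axis) along ANT-C and BX-C, with 100 kb of flank on each side and distance from the window start in kb. Lines are the 2 replicates, grey the series list, and the shaded span the complex. ANT-C coverage reaches 67.3% in replicate 1 near the lab end and runs out toward Antp. BX-C is empty in both replicates in 26 of 33 bins, or 78.8% against 14.6% of all 10 kb bins.

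Coverage stepped down inside both edges of BX-C in each replicate. In the 10 kb just inside the Ubx edge, coverage was 6.38% and 5.71% in replicates 1 and 2, against 34.2% and 18.7% in the 10 kb just outside. At the Abd-B edge neither replicate had a cluster in the 10 kb just inside, against 35.9% and 32.0% just outside. Over 100 kb, coverage inside the Ubx edge was 4.02% and 1.94%, against 32.7% and 29.2% outside. Inside the Abd-B edge it was 4.40% and 0%, against 38.2% and 37.6% outside. A cluster lay across the Ubx edge in each replicate, and the nearest cluster beyond the Abd-B edge began 4.06 kb and 4.18 kb from it.

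At the lab edge of ANT-C the 10 kb just inside were covered to 0% and 13.4% in replicates 1 and 2, against 34.6% and 16.9% just outside. The 100 kb inside were covered to 26.0% and 26.8%, against 32.0% and 24.996% outside, so over that distance the replicates disagreed on the direction. At the Antp edge the 10 kb just inside were covered to 13.4% and 0%, and neither replicate had a cluster in the 10 kb just outside. The 100 kb inside were covered to 5.25% and 4.23%, against 14.4% and 14.7% outside. The sparse sequence ran on beyond this edge: the nearest cluster in the right flank began 37.5 kb from the edge in replicate 1 and 36.6 kb in replicate 2.

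Both complexes held very long stretches without a cluster in either replicate. Those of BX-C were 3R 12615564 to 12746006 (130.4 kb), 12549673 to 12614235 (64.6 kb), 12480639 to 12543208 (62.6 kb), 12760864 to 12793484 (32.6 kb) and 12794798 to the window end (15.2 kb). Those of ANT-C were 2752822 to 2827593 (74.8 kb), 2593248 to 2617782 (24.5 kb), 2720583 to 2738413 (17.8 kb), 2544941 to 2562283 (17.3 kb) and 2636978 to 2653894 (16.9 kb). Among the 3941 such stretches of 3R, ranked by length, those of at least 60 kb in BX-C came at ranks 1, 6 and 8, and the longest of ANT-C at rank 3. The other ANT-C stretches given here came only at ranks 70, 141, 157 and 163.

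On 3R, 12 of these stretches were at least 50 kb long, and 4 of the 12 lay in the Hox complexes. The 4 made up 332 kb of the 837 kb in such stretches, or 39.7%, in complexes that take up 2.44% of the arm. No flank of either complex held a stretch of that length. Stretches of at least 50 kb filled 78.1% of BX-C, 21.4% of ANT-C and 3.00% of 3R as a whole.

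In the series list few clusters interrupted the stretches of at least 50 kb in the complexes. The 130.4 kb stretch of BX-C held 3 series clusters over 2.93% of its bases, and the 74.8 kb stretch of ANT-C held 2 over 3.96%. The shorter 32.6 kb stretch of BX-C held 3 over 13.3%. In the series list alone, the longest cluster-free stretch of 3R was again in BX-C, at 12636624 to 12725707 (89.1 kb), and the longest of ANT-C, at 2781764 to 2824330 (42.6 kb), ranked sixth on the arm. By replicate, the longest stretch touching BX-C was 130.4 kb in replicate 1 and 264.6 kb in replicate 2, there at 12549581 to 12814180. Each was the longest of 3R in its list.

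**Figure D4:**
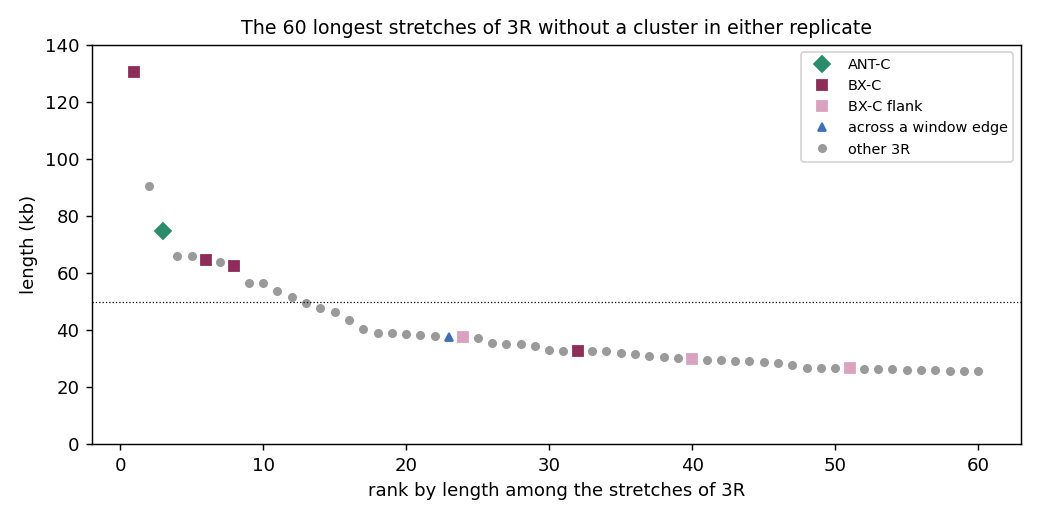
Length in kb of the 60 longest stretches of 3R that hold no H3K9me1 cluster in either replicate, against their rank by length. Squares and diamonds mark stretches inside the complexes or BX-C flanks, the triangle 1 that crosses the Antp edge, and grey points other 3R sequence. Ranks 1, 3, 6 and 8 fall in the complexes, at 130.4, 74.8, 64.6 and 62.6 kb.

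ANT-C held fewer clusters per Mb than its flanks, and its median cluster width and score lay close to theirs. Clusters were assigned to a region by their midpoint. ANT-C held 28 clusters in replicate 1 and 26 in replicate 2, or 77.1 ± 4.04 per Mb, against 122 ± 8.49 per Mb in its flanks (SD, n = 2). Median width was 1851 bp in ANT-C and 1897 bp in the flanks in replicate 1, and 1671 bp and 1875 bp in replicate 2. The widest cluster was 4561 bp in ANT-C and 10325 bp in the flanks in replicate 1, and 4227 bp and 10242 bp in replicate 2. The flanks held more clusters, 128 and 116, so these maxima come from sets of unlike size and are not directly comparable.

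The authors' score, a signed number per cluster of unstated scale, was used only within a list. Its median was 0.562 in ANT-C against 0.536 in the flanks in replicate 1, and 0.506 against 0.551 in replicate 2. The replicates thus differed in direction, and the mean difference, ANT-C minus flanks, was -0.00972 ± 0.0494 (SD, n = 2; exact two-sided sign-flip permutation p = 1). BX-C held 6 clusters in replicate 1 and 1 in replicate 2, or 10.6 ± 10.7 per Mb against 120 ± 6.36 per Mb in its flanks (SD, n = 2). Its median score was 0.497 against 0.536 in the flanks in replicate 1, and its only replicate 2 cluster scored 0.524 against a flank median of 0.545. So few clusters do not allow a statement on scores in BX-C.

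Most ANT-C clusters were called in both replicates. Of the ANT-C clusters of replicate 1, 23 of 28 (82.1%) touched a cluster of replicate 2, and 22 of 26 (84.6%) did so the other way. In the flanks of ANT-C the shares were 70.3% and 78.4%, and on 3R 76.8% and 85.8%. When at least 50% of each cluster had to overlap, the shares were 64.3% and 69.2% in ANT-C, against 64.1% and 70.7% in its flanks, so ANT-C and its flanks were then nearly level. The overlap in bases (Jaccard index, the bases of both lists divided by those of at least 1 list) was 0.623 in ANT-C, 0.528 in its flanks and 0.647 on 3R. In BX-C it was 0.187, against 0.568 in its flanks, with 1.84 kb shared of 9.85 kb. These shared bases include those of the cluster across the Ubx edge. Of the 6 BX-C clusters of replicate 1, 1 touched a replicate 2 cluster.

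In ANT-C, 19 of 43 series clusters touched a cluster in each replicate. No such count was made for 3R or the flanks of either complex. The widest of the 19 was 3R 2523536 to 2528970 (5.44 kb, series score 0.410), covered to 88.1% by replicate 1 and 85.9% by replicate 2. It was followed by 2670426 to 2675108 (4.68 kb, 0.348), 2586575 to 2591005 (4.43 kb, 0.501), 2738420 to 2742825 (4.41 kb, 0.582) and 2562208 to 2566060 (3.85 kb, 0.464). The highest score belonged to 2689025 to 2692182 (3.16 kb, 0.630), covered to 97.3% and 94.1%. It lay at the 90.7th percentile of series scores on 3R. The 2738420 cluster came next, and 2513679 to 2516502 (2.82 kb, 0.574) after it. On its lab side the cluster at 2738420 adjoins the 17.8 kb stretch without a cluster in either replicate.

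In BX-C, 1 of 15 series clusters touched both replicates. It lay at 3R 12548166 to 12550090 (1.93 kb, series score 0.438), with replicate scores of 0.511 and 0.524. The other 5 clusters of replicate 1 lay at 12543209 to 12545228, 12614236 to 12615563, 12746007 to 12747732, 12759502 to 12760863 and 12793485 to 12794797, with scores of 0.584, 0.740, 0.482, 0.398 and 0.431. Replicate 2 had no cluster at any of them. The cluster at 12614236 scored above 83.2% of replicate 1 clusters on 3R or equal to them. For the cluster at 12543209 that share was 52.7%. It was 24.7%, 10.9% and 15.5% for those at 12746007, 12759502 and 12793485. The clusters missing from replicate 2 thus ranged from low to high scores.

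In BX-C a larger share of the series list lay outside both replicates than in its flanks, in ANT-C or on 3R. Of the series clusters, 9 of 15 in BX-C and 15 of 43 in ANT-C touched no replicate cluster, a count not made for the flanks or 3R. By bases, 60.2% of the series list in BX-C was covered in neither replicate. In the flanks of BX-C that share was 28.2%, in ANT-C 30.7% against 32.7% in its flanks, and on 3R 24.99%. Bases covered in both replicates made up 7.63% of the series list in BX-C, against 41.6% in its flanks. In ANT-C they made up 43.4%, against 35.8% in its flanks. Even with these added clusters the series list covered 7.32% of BX-C, against 48.9% of its flanks, a ratio of 0.150. For ANT-C it covered 26.8%, against 52.7% of its flanks, a ratio of 0.509.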

How the data were processed

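The submitters' processing notes name Bowtie 0.12.7, a read aligner. The deposited files are GFF3 lists of enriched clusters for ChIP replicate 1, ChIP replicate 2 and the whole series, on FlyBase r5 per the file headers, and per the labels each input served the ChIP library with its number. Each cluster carries a score given by the authors. Its scale, the cluster caller, the threshold and the combination of replicates are not stated in the labels or headers.

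Coverage was computed as percent of bases under enriched clusters per 1 kb tile, 10 kb bin, complex and flank. Differences were taken within each replicate and tested by an exact two-sided sign-flip permutation test over 2 replicates. Named regions were, per complex, the 5 widest and 3 highest-scoring series clusters touching both replicates, the 5 longest shared cluster-free stretches, the extreme 10 kb bins and every depleted region. The members, lists and rules were chosen with earlier results of these data known. The interval functions were tested on simulated cluster lists. Alternatives covered score, width, list, joining, flank width, tile length, coverage threshold, overlap and each replicate. No sequence is printed, since no genome of the files' build was used here. Python 3.11.15, NumPy 2.4.6, pandas 2.3.3, SciPy 1.17.1 and Matplotlib 3.10.9 were used.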

Additional observations from a re-analysis of the deposited data

How the results depend on the processing

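Every alternative run kept ANT-C below its flanks (from -25.9 to -7.10 percentage points), BX-C below its flanks (from -41.6 to -13.0) and ANT-C above BX-C (from 4.92 to 19.5), but the test over 2 replicates cannot pass 0.05, so these describe direction only. Of 75 values, 59 were kept, 14 were not and 2 reversed. A difference was kept if it held its direction, and a share of tiles or clusters if it stayed within 1.5 times. The Jaccard index was kept if it stayed within a binomial interval over bases. That interval is too narrow, because it counts bases as independent although those under 1 cluster are called together. Some of the 14 are small shifts of the Jaccard index. Tiles at least 50% covered in both replicates became 3.14% in ANT-C and 0% in BX-C with clusters below each list's median score left out. Among clusters of at least 2 kb they became 5.71% and 0.303%. No share of all tiles is given here for a changed score, width, coverage threshold or tile length. The shares under those settings therefore cannot be set against the 26.6% of all tiles in the main setting. In the series list 27.4% and 7.58% of tiles were at least 50% covered, which is a share of a single list and not the same measure. In BX-C, where 3 tiles carry the value, tiles covered in both replicates were also 0% at 75% coverage and 0.455% with 500 bp tiles. With each replicate left out, 0.909% to 3.64% of BX-C tiles were at least 50% covered in the other, again a share of a single list. The Jaccard index of ANT-C was 0.436, 0.589 and 0.630 for median score, 2 kb and joined clusters. That of BX-C was 0 and 0.215 for median score and 2 kb. At 2 kb the shared bases of BX-C, and its 0.303% of tiles, came only from the cluster across the Ubx edge. The ANT-C score difference reversed to 0.0106 in the series list and ran from -0.0447 to 0.0252 with each replicate left out. A threshold leaves fewer clusters by construction; otherwise the cause was not tested. The BX-C score difference had no value for clusters of at least 2 kb, since replicate 2 had none with its midpoint there. No paired analysis was possible because the inputs entered only the cluster calls, so ChIP and input could not be set against each other by number; the differences between regions were all taken within a replicate.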

Other observations

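The series list types 31 regions of the genome as depleted, 7 of them on 3R. None of the 31 lay in ANT-C or BX-C, which hold 680 of 120378 tiles and 2.44% of 3R. With so few depleted regions, none is about what that share gives, so it is no result about the complexes. None of the 31 lay in the flanks of ANT-C. The right flank of BX-C held 2 of them. The nearer, at 3R 12857112 to 12858713, began 47.1 kb beyond the Abd-B edge, with a score of -0.0325, and was covered to 95.8% by an enriched cluster of replicate 1 and not at all by replicate 2. The farther, at 13242676 to 13244261, had a score of -0.149 and was covered to 100% by replicate 2 and not at all by replicate 1.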
